A study of Mus musculus with 6 samples.

Results

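The mature miRNAs of the miR-23, miR-24, and miR-27 families come from a pair of small gene clusters, and their levels were read in the small intestinal mucosa of mice with and without the circular RNA Cdr1as. All rows of the deposited per-miRNA table whose name is 1 of 10 mature miRNAs were taken, 10 of 1831 rows. They comprise the 3p strands mmu-miR-23a-3p, mmu-miR-23b-3p, mmu-miR-24-3p, mmu-miR-27a-3p, and mmu-miR-27b-3p, here called guide strands, and the 5p strands mmu-miR-23a-5p, mmu-miR-24-1-5p, mmu-miR-24-2-5p, mmu-miR-27a-5p, and mmu-miR-27b-5p, here called passenger strands. The samples were mucosa from 3 wild-type littermates and 3 Cdr1as-/- mice, all C57BL/6J in background. The Cdr1as-/- mice lack the Cdr1as locus in every tissue after CRISPR/Cas9 deletion, and the age and sex of the mice on the arrays are not given in the sources used here. Each sample, 100 ng of total RNA, was hybridised to 1 one-colour array, and values are normalized log2 intensities as deposited. Whether Cdr1as loss alters miRNA levels is the question that the comparison addresses.

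A miRNA hairpin is cut into a duplex, of which the guide strand is loaded into Argonaute and the passenger strand is mostly degraded. Guides find target mRNAs mainly through the seed, the bases near the 5′ end, so that miRNAs with the same seed share many predicted targets. Each cluster encodes 1 hairpin of each family in the order miR-23, miR-27, and miR-24 on a shared primary transcript, and the clusters are best known in blood vessels, blood cells, muscle, and fat. Cdr1as is a circular RNA known for its many binding sites for miR-7, which is not a member of these families.

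The mature sequences are shown because the seeds bear on shared targets, and the few differing bases on which members an array can tell apart. They are as deposited, written 5′ to 3′, with the seed (bases 2 to 8) in capitals. The guides come first.
mmu-miR-23a-3p: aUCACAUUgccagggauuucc
mmu-miR-23b-3p: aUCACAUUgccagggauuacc
mmu-miR-27a-3p: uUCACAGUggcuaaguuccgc
mmu-miR-27b-3p: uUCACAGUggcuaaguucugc
mmu-miR-24-3p: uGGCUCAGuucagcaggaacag
mmu-miR-23a-5p: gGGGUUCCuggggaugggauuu
mmu-miR-27a-5p: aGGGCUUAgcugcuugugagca
mmu-miR-27b-5p: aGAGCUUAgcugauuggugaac
mmu-miR-24-2-5p: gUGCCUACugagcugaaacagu
mmu-miR-24-1-5p: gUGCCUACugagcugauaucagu

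Counted from the 5′ end, mmu-miR-23a-3p and mmu-miR-23b-3p differ by U19A alone, and mmu-miR-27a-3p and mmu-miR-27b-3p by C19U alone. How far their probes tell such near-identical strands apart was not tested. The miR-27 passengers differ at 8 positions, G3A among them, so that their seeds are not the same, whereas both miR-24 passengers share a seed. Of the 1831 rows, only the 2 miR-23 guides carry the miR-23 seed and only the 2 miR-27 guides the miR-27 seed, while the miR-24 seed is also found in 5 other listed miRNAs, mmu-miR-6361, mmu-miR-5124b, mmu-miR-6413, mmu-miR-6410, and mmu-miR-6369.

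In the RefSeq annotation of GRCm38.p6, the a cluster (Mir23a, Mir27a, and Mir24-2) lies on the plus strand at chr8:84208527-84208896, and its mature strands span 370 bases that overlap no other listed gene. The b cluster (Mir23b, Mir27b, and Mir24-1) lies on the plus strand at chr13:63300492-63301272, where the mature strands span 781 bases inside the protein-coding gene Aopep. The mmu-miR-24-3p strand is made from both clusters and cannot be assigned to either. Of the 10 deposited sequences, 9 were found in the RefSeq table and were identical to it.

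The array of littermate 3 stood apart from the others, and the genotype comparisons are therefore given with and without it. Before normalization, the median signal of its miRNA probes was 236, compared with 8.75 to 29.2 elsewhere. By rank, its deposited values correlated with littermates 1 and 2 at 0.706 and 0.714, compared with 0.973 between those 2 arrays, and most closely with Cdr1as-/- mouse 1 (0.914), the array with the next-highest median signal. By the barcodes in the scanner output, littermates 1, 2, and 3 and Cdr1as-/- mouse 1 were on slide 1, and Cdr1as-/- mice 2 and 3 on slide 2. By the recorded scan date, littermate 1 was in scan 1 and all other arrays in scan 2. The 9 epithelial marker miRNAs, which include the intestinal mmu-miR-192-5p and mmu-miR-194-5p, were all listed, and all passed the filter on dim probes (a probe well above background on each array of a genotype). Their summed log2 level was 17.16 to 17.17 in littermates 1 and 2, 16.04 in littermate 3, and 17.05 to 17.16 in the Cdr1as-/- mice. This sum is carried by mmu-miR-194-5p and mmu-miR-215-5p, its brightest members. The median deviation of the 9 markers in littermate 3 from the mean of littermates 1 and 2 was -3.08 on the log2 scale, within a range of -4.24 to -0.55.

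Among the guides, no change between genotypes passed the test, and the sign of the difference depended on littermate 3. All 5 guides were far lower in littermate 3 than in littermates 1 and 2. The 3 Cdr1as-/- mice kept 1 order for every guide, highest in mouse 2, lower in mouse 3, and lowest in mouse 1. Mouse 2 lay near littermates 1 and 2, whereas mice 1 and 3 lay below them.

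For mmu-miR-23a-3p, the deposited log2 intensity was 9.31, 9.22, and 5.09 for littermates 1, 2, and 3, against 7.95, 9.39, and 8.36 for Cdr1as-/- mice 1, 2, and 3. Its partner in the b cluster, mmu-miR-23b-3p, read 10.19, 10.15, and 5.61 for the littermates, against 9.08, 10.17, and 9.41 for the Cdr1as-/- mice. In both miR-23 guides the groups overlapped, with Cdr1as-/- mouse 2 close to littermates 1 and 2 and Cdr1as-/- mice 1 and 3 below them.

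For mmu-miR-27a-3p, a strand best known as an inhibitor of fat cell formation, the log2 intensity was 9.35, 9.28, and 4.63 for the littermates, against 7.54, 9.18, and 8.56 for the Cdr1as-/- mice. All 3 Cdr1as-/- mice thus lay between littermate 3 and the other littermates. For mmu-miR-27b-3p the values were 10.37, 10.37, and 6.16 for the littermates, against 9.11, 10.47, and 9.85 for the Cdr1as-/- mice, and Cdr1as-/- mouse 2 gave the highest value of the 6 arrays.

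For mmu-miR-24-3p, the guide that both clusters encode and a known inhibitor of cell cycle genes, the log2 intensity was 9.04, 9.06, and 6.48 for the littermates, against 7.73, 9.14, and 8.22 for the Cdr1as-/- mice. All 5 probes of every guide were well above background on every array, except for mmu-miR-27a-3p on Cdr1as-/- mouse 2 (4 of 5). The fall of mmu-miR-24-3p in littermate 3 was the smallest of the 5 guides, and again Cdr1as-/- mouse 2 gave the highest value. Its size differed between probes, with a deviation from littermates 1 and 2 of -0.29 for the dimmest probe and -3.25 for the brightest.

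**Figure D1:**
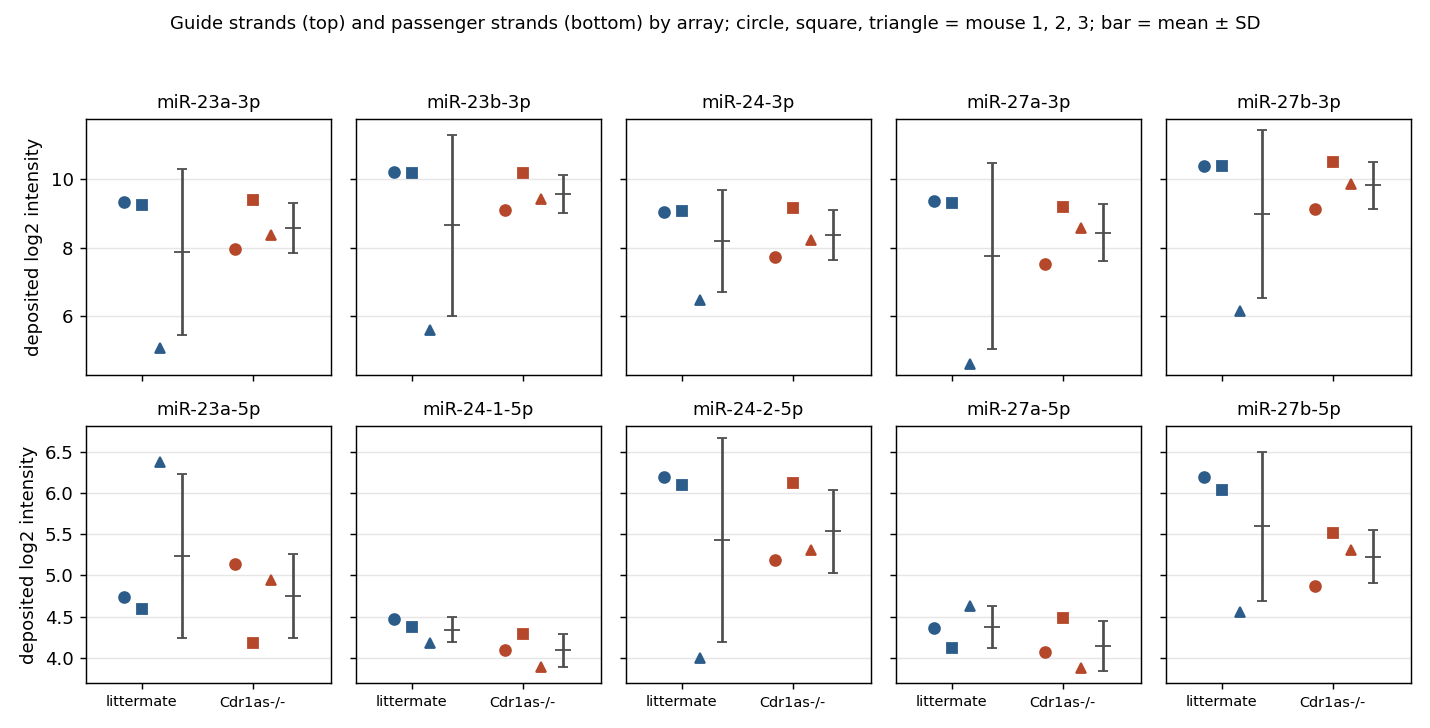
Deposited log2 intensity (y axis) of each guide strand (top row) and passenger strand (bottom row) in the 3 littermates (blue) and the 3 Cdr1as-/- mice (red). Symbols mark mouse 1 (circle), 2 (square), and 3 (triangle), and bars give the mean ± SD of the 3 mice. The triangle of littermate 3 lies far below the other littermates for all 5 guides but above them for miR-23a-5p and miR-27a-5p.

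The passengers did not share 1 pattern. The passengers mmu-miR-24-2-5p and mmu-miR-27b-5p were lower in littermate 3, as the guides were. The log2 intensity of mmu-miR-24-2-5p, from the a cluster, was 6.19, 6.09, and 4.0 for the littermates, against 5.19, 6.11, and 5.31 for the Cdr1as-/- mice. The log2 intensity of mmu-miR-27b-5p, from the b cluster, was 6.19, 6.03, and 4.56 for the littermates, against 4.87, 5.51, and 5.30 for the Cdr1as-/- mice. All 3 Cdr1as-/- values of mmu-miR-27b-5p lay below littermates 1 and 2 and above littermate 3.

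The remaining passengers moved less, or the other way. The log2 intensity of mmu-miR-23a-5p was 4.74, 4.59, and 6.37 for the littermates, against 5.13, 4.18, and 4.95 for the Cdr1as-/- mice, with littermate 3 the highest of the 6 arrays. For mmu-miR-27a-5p it was 4.36, 4.13, and 4.63 for the littermates, against 4.07, 4.48, and 3.88 for the Cdr1as-/- mice. For mmu-miR-24-1-5p it was 4.48, 4.37, and 4.18 for the littermates, against 4.09, 4.29, and 3.90 for the Cdr1as-/- mice, and littermate 3 lay among the Cdr1as-/- values. Each of these 3 strands had few probes well above background on Cdr1as-/- mouse 2, with 0 of 5 for mmu-miR-23a-5p, 0 of 5 for mmu-miR-24-1-5p, and 1 of 5 for mmu-miR-27a-5p. This was in part a trait of the whole array. Of all miRNA probes, 41.5% were well above background on Cdr1as-/- mouse 2, compared with 66.8% to 100% on the other arrays. For these 3 strands, at least 4 of 5 probes were well above background on every other array.

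With all 6 arrays, limma with Benjamini-Hochberg adjustment over the 1831 miRNAs called 0 miRNAs (0% of those tested) between genotypes, none of the 10 members among them. At an unadjusted p below 0.05 it returned 6 miRNAs (0.328%), also without a member, and the methods' t-test returned 21 miRNAs before adjustment and 0 after. The difference of Cdr1as-/- minus littermates on the log2 scale ranged over the guides from 0.17 ± 0.79 (SE) for mmu-miR-24-3p to 0.90 ± 1.26 for mmu-miR-23b-3p, each with a limma adjusted p of 1.0. The passengers ranged from -0.48 ± 0.55 for mmu-miR-23a-5p to 0.11 ± 0.65 for mmu-miR-24-2-5p. As group means, the 3 littermates gave 7.75 ± 2.71 (SD, n = 3) for mmu-miR-27a-3p and the 3 Cdr1as-/- mice 8.43 ± 0.83 (SD, n = 3), so that the spread among littermates exceeded the difference. No member had all 3 Cdr1as-/- mice below all 3 littermates, which 2.73% of the 1831 miRNAs had. The exact permutation test, whose lowest two-sided p is 0.1 when 3 mice face 3, gave 0.2 for mmu-miR-24-1-5p and 0.4 to 1.0 for the other 9 members.

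Without littermate 3, 9 of the 10 members were on average lower in Cdr1as-/- mice, including all 5 guides, but none passed the limma test after adjustment. The median difference was -0.69 for the guides and -0.33 for the passengers on the log2 scale, compared with 0.09 over all 1831 miRNAs, of which 42.9% were lower. Among the 156 other miRNAs whose mean log2 intensity in littermates 1 and 2 exceeded 8, as that of every guide did, the median difference was -0.24 and 63.5% were lower. The guides' median lay below both of these medians.

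Of the 10 members, a pair of miR-27 strands had the largest differences without littermate 3. The difference in mmu-miR-27a-3p was -0.89 ± 0.42 (SE), 0.539-fold, with a limma p of 0.063 and an adjusted p of 0.388. That in mmu-miR-27b-5p was -0.88 ± 0.27, 0.542-fold, with a limma p of 0.0089 and an adjusted p of 0.251. The other 4 guides ranged from -0.56 ± 0.37 for mmu-miR-27b-3p to -0.70 ± 0.39 for mmu-miR-23a-3p, with limma adjusted p-values of 0.393 to 0.421. For mmu-miR-24-2-5p the difference was -0.61 ± 0.31 with a limma adjusted p of 0.388, and for mmu-miR-24-1-5p, mmu-miR-27a-5p, and mmu-miR-23a-5p it was -0.33 ± 0.24, -0.10 ± 0.26, and 0.09 ± 0.31.

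Thus 1 of the 10 members, mmu-miR-27b-5p, was lower at an unadjusted limma p below 0.05 without littermate 3, as were 10.5% of all miRNAs tested, while 2.73% were higher at that level. After adjustment 0 miRNAs (0%) were called. All 3 Cdr1as-/- mice lay below both remaining littermates for 3 of the 10 members, mmu-miR-27a-3p, mmu-miR-27b-5p, and mmu-miR-24-1-5p, and for 19.9% of all miRNAs, and neither count is read as a result about the members. The exact permutation p was 0.2 for these 3 members, the lowest that 3 mice against 2 allow.

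**Figure D2:**
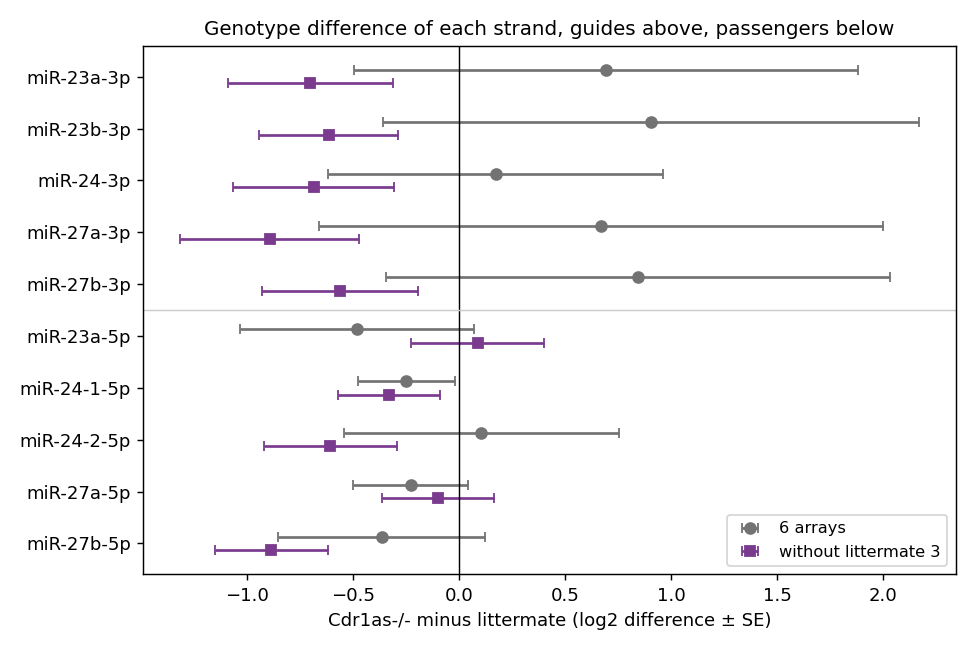
Log2 difference of Cdr1as-/- mice minus littermates (x axis) for each member, as the limma estimate ± SE over all 6 arrays (grey circles) and without littermate 3 (purple squares). The 5 guides and miR-24-2-5p lie above 0 with 6 arrays and below 0 without littermate 3. The strands miR-24-1-5p, miR-27a-5p, and miR-27b-5p lie below 0 in both, and miR-23a-5p lies below 0 with 6 arrays only.

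The separate probes of a strand gave the same sign within each guide once littermate 3 was left out. All 5 probes of each of the 5 guides were lower in Cdr1as-/- mice, with probe differences from -1.14 to -0.76 for mmu-miR-27a-3p, from -0.89 to -0.61 for mmu-miR-23a-3p, and from -0.85 to -0.49 for mmu-miR-23b-3p. The 5 probes of mmu-miR-27b-5p ranged from -1.0 to -0.82. Those of mmu-miR-23a-5p ranged from -0.11 to 0.42 and spanned 0. Probes of 1 strand measure the same RNA on the same arrays and are not replicates of the genotype.

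Taken array by array against the mean of littermates 1 and 2, the guides of Cdr1as-/- mouse 2 differed by -0.14 to 0.12 on the log2 scale, those of mouse 3 by -0.90 to -0.52, and those of mouse 1 by -1.78 to -1.09. The 2 littermates themselves differed by 0.09 or less for every guide. The spread among the Cdr1as-/- mice, 1.09 to 1.64 for the 5 guides, therefore exceeded their mean difference from littermates 1 and 2. Over all 1831 miRNAs the median deviation was 0.15 in mouse 1, 0.02 in mouse 2, and 0.01 in mouse 3, and over the 156 other miRNAs with a mean above 8 it was -0.47, 0.04, and -0.31.

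Littermate 3 deviated further than any Cdr1as-/- mouse for every guide. On the log2 scale it differed from the mean of littermates 1 and 2 by -4.69 for mmu-miR-27a-3p, -4.56 for mmu-miR-23b-3p, -4.21 for mmu-miR-27b-3p, -4.18 for mmu-miR-23a-3p, and -2.58 for mmu-miR-24-3p. Of all 1831 miRNAs, 0.273% fell as far as mmu-miR-27a-3p and 6.88% as far as mmu-miR-24-3p. The passengers differed by -2.14 for mmu-miR-24-2-5p, -1.56 for mmu-miR-27b-5p, -0.24 for mmu-miR-24-1-5p, 0.38 for mmu-miR-27a-5p, and 1.71 for mmu-miR-23a-5p. The median over all miRNAs was 0.39. Over the 156 other miRNAs with a mean above 8 it was -1.91, within a range of -5.29 to 6.41. The arrays with the lowest guide levels, littermate 3 and Cdr1as-/- mouse 1, were those with the highest median signal before normalization (236 and 29.2), and the part of that signal in these differences was not tested.

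**Figure D3:**
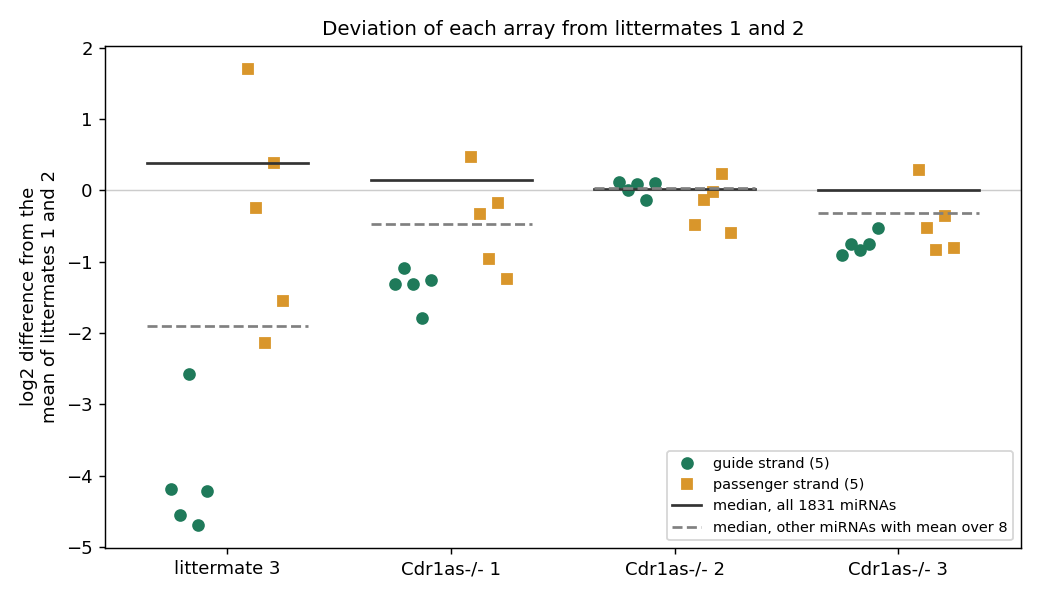
Log2 difference of littermate 3 and of each Cdr1as-/- mouse from the mean of littermates 1 and 2 (y axis), for the 5 guide strands (green circles) and the 5 passenger strands (orange squares). Lines give the median of all 1831 miRNAs (solid) and of the 156 other miRNAs with a mean log2 intensity above 8 (dashed), and the guides lie below both lines in littermate 3 and in Cdr1as-/- mice 1 and 3.

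Slide and genotype overlapped in part, since slide 2 held only Cdr1as-/- mice. With the slide as a block the difference rests on Cdr1as-/- mouse 1 against the littermates of its slide. Within slide 1, mouse 1 minus the 3 littermates was 0.43 for mmu-miR-23b-3p, 0.14 for mmu-miR-27b-3p, 0.08 for mmu-miR-23a-3p, -0.22 for mmu-miR-27a-3p, and -0.46 for mmu-miR-24-3p. Without littermate 3 it was -1.78 for mmu-miR-27a-3p and -1.32 to -1.09 for the other 4 guides.

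The a and b clusters were compared through the difference between paired strands within 1 array, which leaves out any shift that both strands share. Probes of different sequence are not equally bright, so that only the change of such a difference between genotypes is read, not its size. Of 9 differences compared, 4 set the a cluster against the b cluster and 5 set a guide against a passenger. None separated the genotypes when all 6 arrays were used. Exact permutation p-values were 0.2 to 1.0, and 1.0 after Benjamini-Hochberg adjustment over the 9.

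The miR-23 guides moved together closely, but they are near-identical in sequence, and how far their probes tell them apart was not tested. The difference of mmu-miR-23a-3p minus mmu-miR-23b-3p was -0.87, -0.93, and -0.53 for the littermates, against -1.13, -0.79, and -1.05 for the Cdr1as-/- mice, a change of -0.21 with an exact permutation p of 0.3. Although both strands had fallen by over 4 log2 units in littermate 3, their difference there stayed within 0.60 of every other array. Without littermate 3 the change was -0.09 with an exact permutation p of 0.6.

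For the miR-27 guides, mmu-miR-27a-3p minus mmu-miR-27b-3p was -1.02, -1.09, and -1.53 for the littermates, against -1.58, -1.29, and -1.29 for the Cdr1as-/- mice. The change was -0.17 with all arrays (exact permutation p of 0.4). Without littermate 3 it was -0.33, with all 3 Cdr1as-/- mice below both littermates and an exact permutation p of 0.2, the lowest possible. The deposited value of the brightest probe gave 0.083 with 6 arrays and -0.22 without littermate 3. Scanner signals scaled to the 75th percentile, also with the brightest probe, gave 0.16 and -0.10.

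Between the clusters, the differences between paired passengers in littermate 3 were unlike those in littermates 1 and 2. The difference of mmu-miR-27a-5p minus mmu-miR-27b-5p was -1.83, -1.91, and 0.07 for the littermates, against -0.80, -1.03, and -1.42 for the Cdr1as-/- mice. The change was 0.14 with all arrays and 0.78 without littermate 3, where all 3 Cdr1as-/- mice lay above both littermates (exact permutation p of 0.2). For mmu-miR-24-2-5p minus mmu-miR-24-1-5p the values were 1.71, 1.72, and -0.18 for the littermates, against 1.09, 1.82, and 1.41 for the Cdr1as-/- mice, and the groups overlapped in both comparisons.

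Guide minus passenger differences were compressed in littermate 3. For mmu-miR-23a-3p minus mmu-miR-23a-5p the difference was 4.57, 4.63, and -1.29 for the littermates, against 2.82, 5.21, and 3.42 for the Cdr1as-/- mice. For mmu-miR-27a-3p minus mmu-miR-27a-5p it was 4.99, 5.16, and 0.00 for the littermates, against 3.46, 4.70, and 4.68 for the Cdr1as-/- mice. Cdr1as-/- mouse 1 was thus the lowest of the 5 other arrays for both hairpins. The passengers mmu-miR-23a-5p and mmu-miR-27a-5p were dim in littermates 1 and 2 (means of 4.67 and 4.25), with less room to fall than the guides. Within mmu-miR-27a-3p, the deviation in littermate 3 was -1.48 for the dimmest probe and -4.81 for the brightest. The part of probe brightness in the guide minus passenger differences was not tested.

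For mmu-miR-27b-3p minus mmu-miR-27b-5p the difference was 4.18, 4.34, and 1.60 for the littermates, against 4.24, 4.96, and 4.55 for the Cdr1as-/- mice, with a change of 1.21 over all arrays (exact permutation p of 0.2) and 0.32 without littermate 3 (exact permutation p of 0.4). For mmu-miR-24-3p the difference from mmu-miR-24-1-5p was 4.57, 4.69, and 2.29 for the littermates, against 3.64, 4.85, and 4.32 for the Cdr1as-/- mice. Its difference from mmu-miR-24-2-5p was 2.85, 2.97, and 2.47 and 2.55, 3.03, and 2.92, so that mmu-miR-24-3p and mmu-miR-24-2-5p shifted alike on every array to within 0.55.

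Without littermate 3, 3 of the 9 differences had groups that did not overlap, all of them between miR-27 strands. The third was mmu-miR-27a-3p minus mmu-miR-27a-5p, which changed by -0.79 (exact permutation p of 0.2). These 3 differences reuse mmu-miR-27a-3p and mmu-miR-27a-5p, so they are not separate observations. No share over the whole table was computed for differences between clusters, and the count is not read as a result about the miR-27 family. After Benjamini-Hochberg adjustment over the 9 differences, the exact permutation p-values were 0.6 to 1.0. Among the 659 hairpins in the table with both a 5p and a 3p row, the difference of the brighter minus the dimmer arm was below both littermates in all 3 Cdr1as-/- mice for 18.1%. In littermate 3 the median change of this difference was 0.00 over these hairpins, and the lowest 10% lay at -2.66 or below, and over the 254 other hairpins whose arms lay more than 2 log2 units apart in littermates 1 and 2 these values were 0.10 and -3.44. The changes were -5.89 for miR-23a, -5.08 for miR-27a, and -2.66 for miR-27b.

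**Figure D4:**
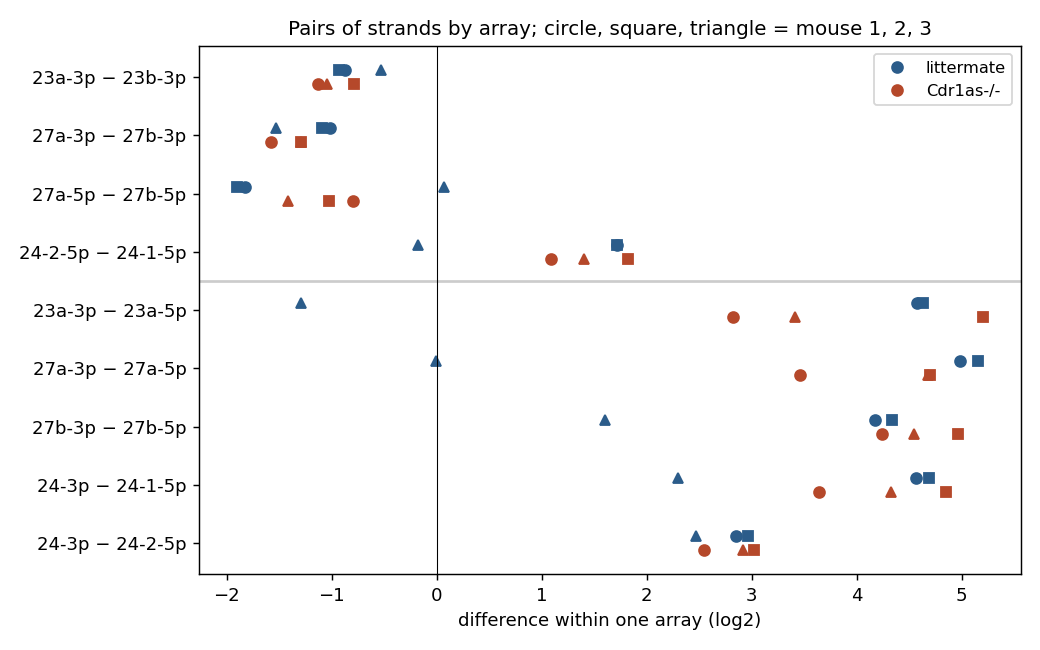
Difference between paired strands within 1 array (x axis, log2) for the 4 pairs of a and b cluster strands (above the line) and the 5 pairs of guide and passenger (below it) in littermates (blue) and Cdr1as-/- mice (red), with mouse 1, 2, and 3 as circle, square, and triangle. Both miR-23 guides and both miR-27 guides keep their difference to within 0.60 over the 6 arrays, whereas the guide minus passenger difference of miR-23a ranges from -1.29 to 5.21.

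Profiles over the arrays were also compared between miRNAs. Likeness was measured as the root mean square difference of the log2 profiles over the 6 arrays, after each profile was centred on its mean, and a large part of it comes from littermate 3. The closest non-members were mmu-miR-342-3p (0.139), mmu-miR-26b-5p (0.143), and mmu-miR-19b-3p (0.144) for mmu-miR-23a-3p, and mmu-let-7e-5p (0.0988), mmu-miR-30b-5p (0.0992), and mmu-miR-15b-5p (0.103) for mmu-miR-23b-3p. For mmu-miR-27a-3p they were mmu-miR-802-5p (0.120), mmu-miR-31-3p (0.160), and mmu-miR-106b-5p (0.177), and for mmu-miR-27b-3p they were mmu-miR-19a-3p (0.103), mmu-miR-107-3p (0.106), and mmu-miR-103-3p (0.106). For mmu-miR-24-3p they were mmu-miR-3962 (0.0738), mmu-miR-101c (0.0745), and mmu-miR-221-3p (0.137).

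With 6 arrays, the closest member was farther than the third of these in all 5 guides, at 0.147 between mmu-miR-23a-3p and mmu-miR-27b-3p and 0.211 between mmu-miR-24-3p and mmu-miR-24-2-5p. The median over all other rows was 1.1 to 1.81. Without littermate 3 this order did not hold for every guide. Over the remaining 5 arrays, mmu-miR-23a-3p and mmu-miR-24-3p were closer to each other (0.0485) than to any other row of the table, with mmu-miR-101c (0.0642) the closest non-member of mmu-miR-23a-3p and mmu-miR-3962 (0.0653) that of mmu-miR-24-3p. The closest member of mmu-miR-23b-3p was mmu-miR-24-2-5p (0.0737), with 6 non-members closer. That of mmu-miR-27b-3p was mmu-miR-24-3p (0.118), with 12 non-members closer, and that of mmu-miR-27a-3p was mmu-miR-27b-3p (0.194), with 48 non-members closer. Of the 3 closest non-members with 6 arrays, 2 remained for mmu-miR-24-3p, 1 for mmu-miR-23a-3p, and 0 for the other guides.

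Of 14 miRNAs listed for endothelium and angiogenesis, the setting in which these clusters are best known, all were in the table, and 0 passed the limma test after adjustment with 6 arrays or without littermate 3. With 6 arrays, 6 of 14 were lower and the median log2 difference was 0.01, compared with -0.07 over all miRNAs. Without littermate 3, 13 of 14 were lower and the median was -0.54, compared with a median of 0.09 and 42.9% lower over all miRNAs, and -0.24 and 63.5% lower over the 156 with a mean above 8. Among the 14 were mmu-miR-221-3p at -0.80 ± 0.31 (SE, limma adjusted p of 0.345) and both arms of miR-126a, which is known from endothelium, mmu-miR-126a-3p at -0.68 ± 0.47 (limma adjusted p of 0.431) and mmu-miR-126a-5p at -0.01 ± 0.30 (limma adjusted p of 0.977).

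Markers of other cells that the mucosa can hold also differed between the arrays, not all in the order of the guides. The summed log2 level of the 5 guides was 12.07, 12.04, and 8.07 for littermates 1, 2, and 3, against 10.77, 12.10, and 11.35 for Cdr1as-/- mice 1, 2, and 3. That of the 2 endothelial markers was 8.97, 9.34, and 6.70, against 8.39, 9.47, and 7.68, and that of the 6 immune markers 12.53, 12.59, and 9.25, against 12.13, 12.86, and 12.03. Both sums were highest in Cdr1as-/- mouse 2, like the guides, but lowest among the Cdr1as-/- mice in mouse 3 and not in mouse 1. The brightest members, mmu-miR-126a-3p and mmu-miR-142a-3p, carry these sums. Of the immune markers, mmu-miR-142a-5p, mmu-miR-223-3p, and mmu-miR-146a-5p were lowest among the Cdr1as-/- mice in mouse 1, and the others in mouse 3.

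The 7 smooth muscle and mesenchyme markers summed to 11.39, 11.33, and 7.57, against 12.56, 12.29, and 10.17. The sum was thus highest in Cdr1as-/- mouse 1, where the guides were lowest among the Cdr1as-/- mice. It is carried by mmu-miR-143-3p and mmu-miR-145a-5p, its brightest members. Each of the others was highest in Cdr1as-/- mouse 2. In mouse 1, mmu-miR-199a-3p (6.57), mmu-miR-199a-5p (5.72), and mmu-miR-214-3p (4.80) lay below littermates 1 and 2, as the guides did. There mmu-miR-1a-3p (7.10) and mmu-miR-133a-3p (5.29) lay above them. The 3 erythroid markers summed to 10.08, 8.25, and 6.77, against 7.61, 8.18, and 7.70. Every sum was lowest in littermate 3, but single markers there were not. In littermate 3, mmu-miR-486a-5p was at 5.77 (3.61 and 3.34 in littermates 1 and 2) and mmu-miR-126a-5p at 5.09 (4.75 and 4.99). Likewise, mmu-miR-155-5p was at 7.58 (7.40 and 7.41) and mmu-miR-133a-3p at 5.10 (5.01 and 5.26). In these whole-mucosa samples, fewer cells of a type and less RNA per cell cannot be told apart, and the part of these cells in the guides' levels was not tested.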

How the data were processed

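Small RNAs of small intestinal mucosa were measured on 6 one-colour Cy3 arrays, grouped by genotype as labelled (3 wild-type littermates, 3 Cdr1as-/- mice). The study's methods name a miRCURY LNA array run by Arraystar, whereas the scanner output comes from Agilent Feature Extraction 11.0.1.1, per the file headers. The scanner output deposited by the authors holds background-subtracted intensity per spot. The authors deposited normalized log2 values for 10690 of 14192 small RNA probes and for 1831 miRNAs; their normalization is not given in the sources used here. Averaging 1 to 5 deposited probe values on the linear scale and taking log2 gave each miRNA value to within 0.0002. The authors' own group means, fold changes, p-values, and q-values in the deposited table were not used. The number of arrays limits the precision, and since nothing names separate litters, p-values measure only the spread between these samples.

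The 10 members are the rows named by the rule. The text also names, for each guide, the 3 other miRNAs with the closest centred profile, and listed markers. Members and lists were chosen with earlier results of these data known.

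The deposited log2 values of all 1831 miRNAs, without a filter, were fitted with limma 3.58.1 (lmFit and eBayes) in R 4.3.3 and adjusted by the Benjamini-Hochberg method. Single strands and strand differences were compared by two-sided exact permutation in SciPy 1.17.1, with Python 3.11.15, NumPy 2.4.6, pandas 2.3.3, and matplotlib 3.10.9. Simulated data with known changes were used to check the limma fit, with independent noise of the spread seen without littermate 3. They held no array that stood apart and no slide effect, so they do not show how the fit behaves on these arrays. The alternatives used the scanner signal with the brightest probe for each miRNA, scaled to the 75th percentile (over 5555 probes that passed background everywhere, or over all probes), quantile normalized, or corrected by normexp with an offset of 50 on the median signals. Further alternatives were the deposited value of the brightest probe, a replicate block, a slide block, each replicate left out in turn, the methods' t-test, an intensity trend, and a filter on dim probes (well above background on every array of a group), which 1611 miRNAs and all 10 members passed. The 75th percentile scaling, the brightest probe, the t-test, the filter, and the profile comparison without littermate 3 were added after seeing the data.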

Additional observations from a re-analysis of the deposited data

How the results depend on the processing

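No member was called under any alternative, and 0 miRNAs passed after adjustment in each. At an unadjusted p below 0.05, 6 miRNAs became 1 with the scanner signal scaled to the 75th percentile of detected probes, 3 with the replicate block, and 21 with the methods' t-test, and 1 to 242 with a replicate left out, the highest count being that without littermate 3. Without littermate 3, the counts were 195 with the scanner signal, 174 with the t-test, and 218 with the filter on dim probes. The cause was not tested. Genotype differences ranged, with a replicate left out, from -0.70 to 1.41 for mmu-miR-23a-3p, -0.80 to 0.088 for mmu-miR-23a-5p, -0.61 to 1.67 for mmu-miR-23b-3p, -0.69 to 0.61 for mmu-miR-24-3p, -0.61 to 0.49 for mmu-miR-24-2-5p, -0.89 to 1.47 for mmu-miR-27a-3p, and -0.56 to 1.54 for mmu-miR-27b-3p. In each of these 7 the sign turned without littermate 3, and for mmu-miR-24-3p (-0.21) and mmu-miR-24-2-5p (-0.18) also without Cdr1as-/- mouse 2. The differences of mmu-miR-24-1-5p, mmu-miR-27a-5p, and mmu-miR-27b-5p stayed below 0 whichever replicate was left out, at -0.35 to -0.15, -0.39 to -0.096, and -0.88 to -0.066. For mmu-miR-27b-5p, -0.37 with 6 arrays, the values were -0.066 without littermate 1, -0.15 without littermate 2, -0.19 without Cdr1as-/- mouse 1, and -0.88 without littermate 3. Without littermate 3, the t-test and the filter gave the same differences as limma (-0.70, 0.088, -0.61, -0.69, -0.61, -0.89, and -0.56 in the order above). That equality is fixed in advance, since each takes the difference of group means of the same values. Also without littermate 3, the scanner signal gave -0.94 for mmu-miR-23a-3p, -0.98 for mmu-miR-23b-3p, -0.77 for mmu-miR-24-3p, -0.73 for mmu-miR-24-2-5p, -1.05 for mmu-miR-27a-3p, -0.95 for mmu-miR-27b-3p, -0.049 for mmu-miR-23a-5p, and -0.68 for mmu-miR-24-1-5p (limma -0.33). With 6 arrays, the sign also turned with the slide as a block (-0.46 for mmu-miR-24-3p, -0.24 for mmu-miR-24-2-5p, and -0.22 for mmu-miR-27a-3p), with normexp (-0.022 for mmu-miR-24-2-5p), and for mmu-miR-27a-5p with quantile normalization (0.060) and the brightest probe (0.058).

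Of the strand differences, mmu-miR-27a-3p minus mmu-miR-27b-3p turned with the scanner signal (0.16) and the brightest probe (0.083). With a replicate left out, the changes ranged from -0.20 to 0.78 for mmu-miR-27a-5p minus mmu-miR-27b-5p, -0.28 to 0.67 for mmu-miR-24-2-5p minus mmu-miR-24-1-5p, -0.79 to 2.17 for mmu-miR-23a-3p minus mmu-miR-23a-5p, -0.79 to 1.79 for mmu-miR-27a-3p minus mmu-miR-27a-5p, -0.36 to 0.84 for mmu-miR-24-3p minus mmu-miR-24-1-5p, and -0.079 to 0.21 for mmu-miR-24-3p minus mmu-miR-24-2-5p. The first of these turned without littermate 1, littermate 2, or Cdr1as-/- mouse 1, the last without Cdr1as-/- mouse 2 or littermate 3, and the other 4 without littermate 3. With the scanner signal and without littermate 3, the changes that turned were 0.044 for mmu-miR-23a-3p minus mmu-miR-23b-3p, -0.043 for mmu-miR-24-2-5p minus mmu-miR-24-1-5p, -0.89 and -0.92 for the miR-23a and miR-27a hairpins, -0.10 for miR-27b, and -0.090 and -0.047 for mmu-miR-24-3p minus mmu-miR-24-1-5p and mmu-miR-24-2-5p.

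With the brightest probe at its deposited value and without littermate 3, those that turned were -0.24 for mmu-miR-24-2-5p minus mmu-miR-24-1-5p, -0.66 and -0.86 for the miR-23a and miR-27a hairpins, and -0.014 for mmu-miR-24-3p minus mmu-miR-24-1-5p.

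Whether same-numbered mice were paired is not given in the labels. Deviations of same-numbered mice from their group means correlated at -0.759, 0.564, and -0.224 over the miRNAs. Littermate 3 stood apart and shifts the mean of its group, so these values cannot decide pairing. With Cdr1as-/- mouse 1, littermates 1 and 2 correlated at -0.759 and -0.805, and littermate 3 at 0.811. In this balanced design a replicate block cannot change the mean difference (0.69 for mmu-miR-23a-3p and 0.67 for mmu-miR-27a-3p), and it gave 0 calls.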

Other observations

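The passenger strand mmu-miR-23b-5p of the b cluster is in the table but not among the 10 members. Its log2 intensity was 3.37, 3.42, and 3.33 for the littermates, against 3.22, 3.04, and 2.85 for the Cdr1as-/- mice, so that all 3 Cdr1as-/- mice lay below all 3 littermates, as did those of 2.73% of the 1831 miRNAs. The difference was -0.34 ± 0.22 (SE) with a limma p of 0.174 and an adjusted p of 1.0, and the exact permutation p was 0.1, the lowest that 3 mice against 3 allow. The strand was dim, with 0, 1, and 2 of its 5 probes well above background on Cdr1as-/- mouse 2, Cdr1as-/- mouse 3, and littermate 1. It is named here after its values were seen.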
